A study of Mus musculus with 2 samples.

Results

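The genes described here encode the nuclear-encoded subunits of respiratory complexes II, III, IV and V and cytochrome c, together with a few genes that carry similar names. They were chosen by a rule on gene names, with earlier results of these data known. It took *Sdha* to *Sdhd*, *Cyc1*, *Cycs* and every name that starts with *Uqcr*, *Cox4*, *Cox5*, *Cox6*, *Cox7*, *Cox8* or *Atp5*. The rule found 77 probes of 49 gene names among 37074 names on the array, of which 4 belong to complex II, 9 to complex III, 1 to cytochrome c, 17 to complex IV and 18 to complex V. Of these names, 46 were counted as subunit genes. The other names are *Atp5c1-ps*, a pseudogene of *Atp5c1*, and *Atp5s* and *Atp5sl*, whose current symbols *Dmac2l* and *Dmac2* mark them as factors outside the ATP synthase core. *Cox5b* was not analysed here.

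The WT array was hybridised with striatal RNA of WT mice given MPTP, a toxin of dopaminergic neurons, and the Cx30 KO array with that of Cx30 KO mice given MPTP. Each array carries 1 pool of 2 male mice aged 8 weeks, killed on day 1 after MPTP, which was given as 4 doses of 20 mg/kg spaced 2 h apart. The labels give the strain as C57BL/6J for WT and Cx30-LacZ for Cx30 KO, whereas the methods describe both as offspring of heterozygous parents, and the loss of *Gjb6*, the gene of Cx30, is not restricted to astrocytes. With 1 array for each genotype no test and no error between mice could be had, the number of arrays limits the precision, and the comparison is of the genotypes after MPTP, not of MPTP with saline.

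The respiratory chain hands electrons from nutrients to oxygen and uses the energy to pump protons across the inner mitochondrial membrane. Complex II oxidises succinate, complex III passes electrons from ubiquinol to cytochrome c, complex IV reduces oxygen, and complex V lets protons flow back and makes ATP. Complexes III, IV and V are built from both nuclear and mitochondrial genes, whereas complex II is wholly nuclear. The active metabolite of MPTP blocks complex I, which lies upstream of complexes III to V. Several complex IV subunits have a second isoform that is typical of heart and skeletal muscle, lung or testis.

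Values are processed signals in arbitrary units, each with the error estimated by the scanner software for that array, which had a median of 10% of the signal over the members and reached 14.5% for dim probes. Ratios are Cx30 KO over WT on the log2 scale after each array was scaled to its 75th percentile, 401.2 in WT and 381.8 in Cx30 KO. Levels of different probes are not comparable, so genes are compared by their ratios. Summed signals of marker lists are given in multiples of each array's 75th percentile and follow the brightest probes. *Gjb6* gave 1788 ± 179 in WT and 111 ± 11.6 in Cx30 KO (log2 ratio -3.94). A gene counted as detected when a probe was well above background on at least 1 array, which held for 22008 genes. The criteria for a difference were a ratio of at least 1.5 with a Z-score of at least 2, or of at most 0.66 with a Z-score of at most -2, the Z-score being taken from the 1000 probes nearest in signal.

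Markers of some other cell types differed between the arrays, several of them by more than any respiratory gene. Markers of cortical excitatory neurons were higher in Cx30 KO, with 5 of 6 meeting the criteria and a sum of 0.435 in WT and 3.64 in Cx30 KO. Markers of oligodendrocytes (5 of 7 meeting the criteria, sums of 364 and 232) and microglia (4 of 6, sums of 70.5 and 50.6) were lower. All 9 striatal neuron markers were detected on both arrays, with 5 below 0, a median log2 ratio of -0.16, sums of 1226 and 1272 and 0 meeting the criteria. Astrocyte markers had 3 of 6 below 0, a median of -0.16 and sums of 103 and 93.6, and *Aqp4*, at 889 in WT and 438 in Cx30 KO (log2 ratio -0.95), met the criteria. The part of these differences in the ratios of the respiratory genes was not tested.

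Transcripts of the respiratory complexes gave slightly lower signals in Cx30 KO than in WT, and none of them stood far from WT. Of 48 detected members, 36 had a log2 ratio below 0 and 12 above 0, whereas 45.4% of all detected genes lay below 0. The median log2 ratio was -0.11 over the members and 0.03 over all detected genes. No member (0) met the criteria for lower expression in Cx30 KO, against 3.39% of all detected genes, and no member (0) met those for higher expression, against 2.37%. The ratios ran from -0.45 for *Atp5s* to 0.34 for *Cox7b2*, inside the limits of -0.60 and 0.58 that the ratios of 0.66 and 1.5 make on the log2 scale. The Z-scores ran from -1.86 to 0.73.

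**Figure D1:**
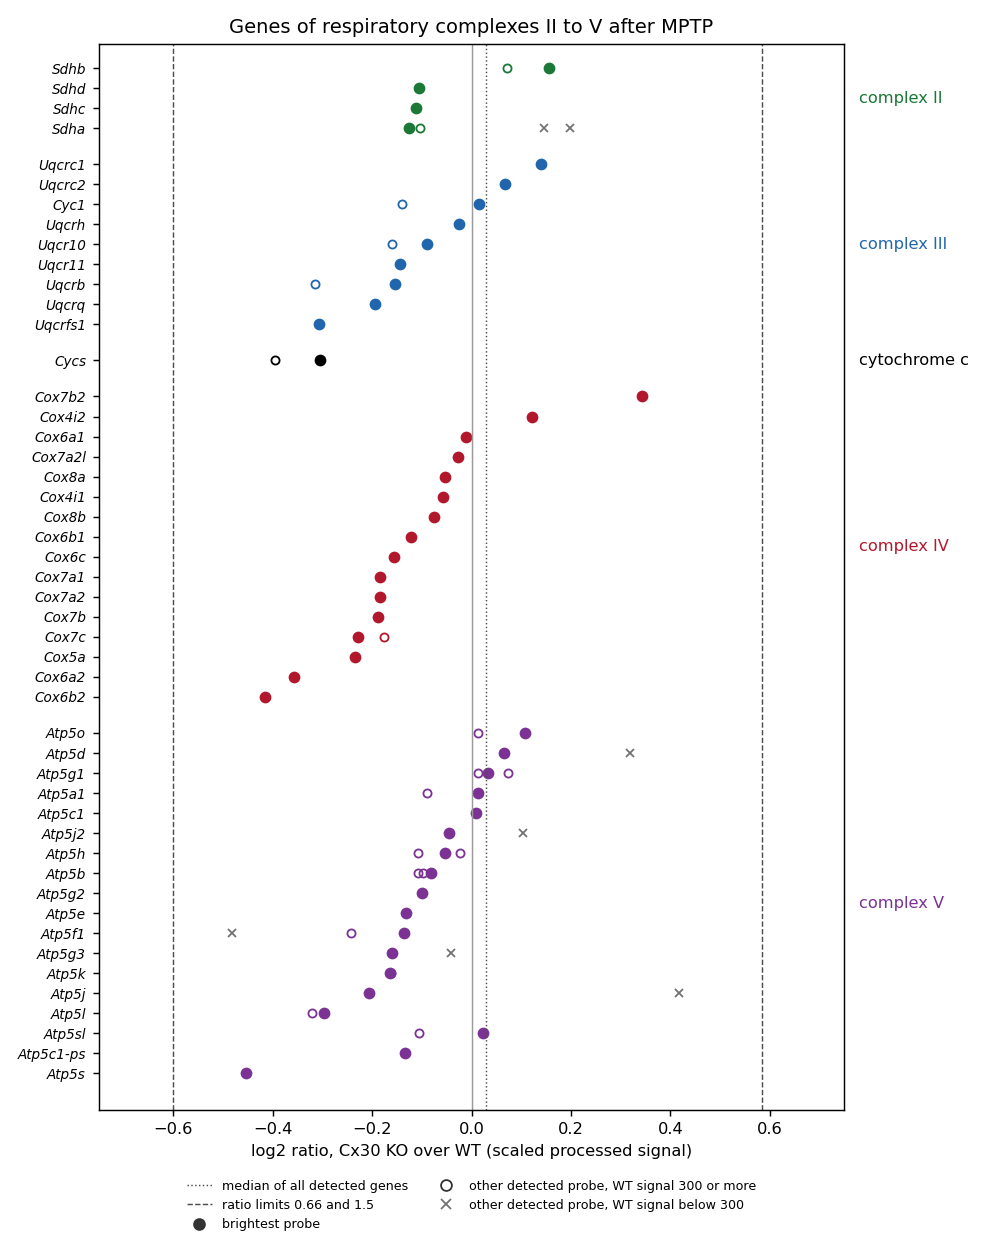
Log2 ratio of Cx30 KO over WT (horizontal axis) for the 48 detected genes, grouped by complex, with 1 array for each genotype. Filled circles are the brightest probe of a gene, open circles and crosses its other detected probes. The filled circles lie between -0.45 and 0.34, inside the dashed ratio limits, and 36 of 48 lie below 0.

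Most of these genes are bright, and ratios of bright probes scatter less, with quartiles of -0.09 and 0.13 over genes at 4000 or more on both arrays against -0.17 and 0.21 over all detected genes. Of the members, 38 were as bright, and 28 of them had a log2 ratio below 0. Among all 3154 genes at that signal, 41.7% lay below 0, with a median of 0.03 against -0.09 for the 38 members. The distance between the medians was thus about the same at matched signal. Calls were rare at this signal in general. Of the 3154 genes, 27 met the criteria for lower expression in Cx30 KO and 23 those for higher expression. A count of 0 among the 38 members therefore does not set them apart.

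**Figure D2:**
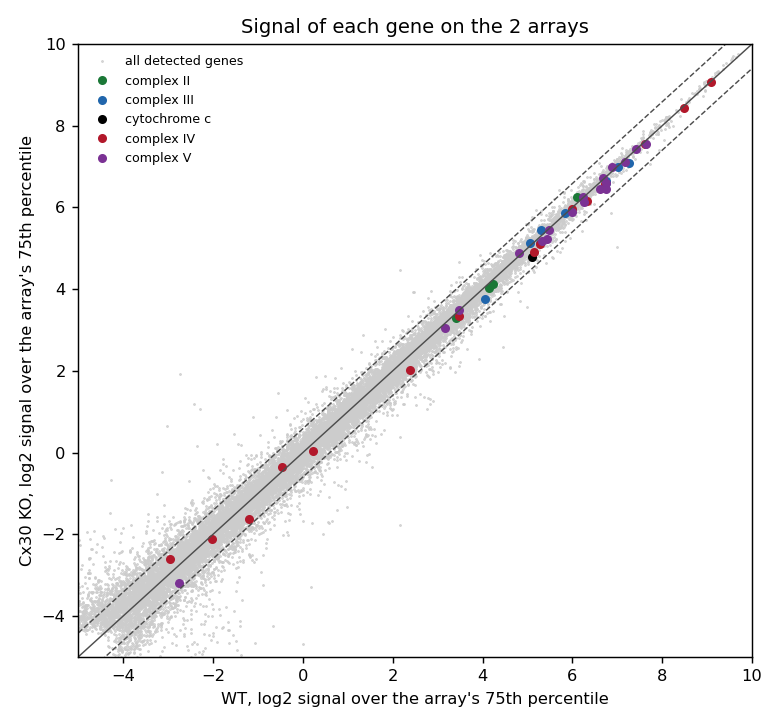
Signal of each of 22008 detected genes in WT (horizontal axis) and Cx30 KO (vertical axis), as log2 of the signal over the array's 75th percentile, with 1 point per gene and axes from -5 to 10. The solid line marks equal values and the dashed lines the ratios of 1.5 and 0.66. All 48 coloured members lie between the dashed lines, most of them at the bright end.

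**Figure D3:**
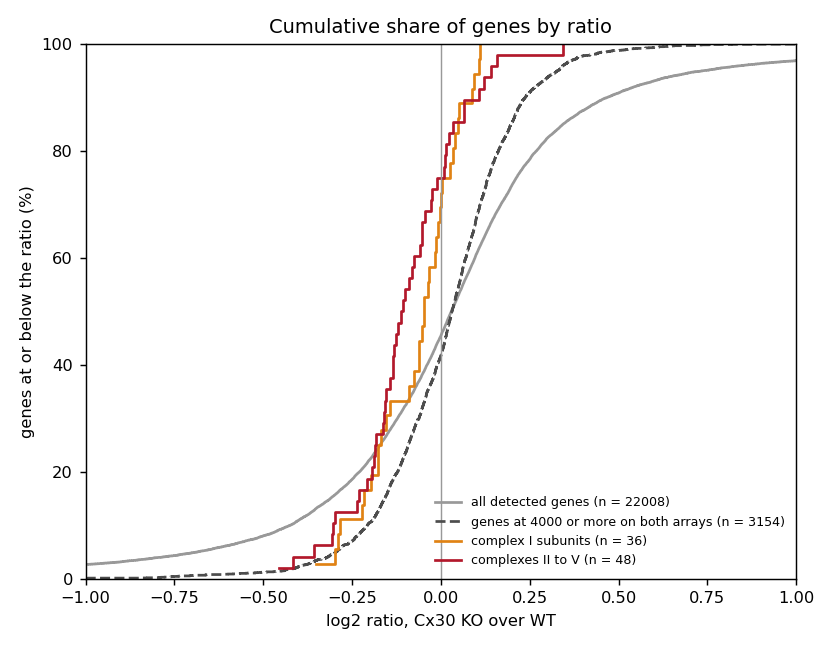
Cumulative share of genes (vertical axis, %) at or below each log2 ratio of Cx30 KO over WT (horizontal axis). At a ratio of 0 the curve of the 48 members has reached 75% and that of 36 complex I subunits 72.2%, whereas all detected genes have reached 45.4%.

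Differences of this size are close to what a single array resolves. Probes spotted 10 times gave an SD of 0.06 for a single-spot log2 ratio, and by this measure 30 members lay below 0 by more than 1 SD, 7 above it and 11 within it. The software's own error, which is mostly a fixed share of the signal, came to a median of 0.20 for a log2 ratio. Only 10 members lay outside their own error by this measure, 9 of them below 0 (*Uqcrfs1*, *Cycs*, *Cox5a*, *Cox6a2*, *Cox6b2*, *Cox7c*, *Atp5j*, *Atp5l* and *Atp5s*) and *Cox7b2* above. Neither measure holds the difference between mice.

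Probes of the same gene showed how far single ratios carry. Of 15 members with at least 2 probes of 1000 or more in WT, 13 had all of these probes on the same side of 0, with a pooled SD of 0.06 between probes. Over all 20 members with at least 2 detected probes, dim ones included, this SD was 0.13. Among the 15, the exceptions were *Cyc1* and *Atp5a1*, each with its brighter probe just above 0 and its other probe below. *Atp5sl*, outside the 15, was split in the same way, with a second probe of 848 in WT (log2 ratio -0.11). Of 7 further probes below 300 in WT, most of them made for other transcripts, 4 lay on the other side of 0 from the brightest probe of their gene. Of all 77 probes, 7 shared a run of 20 or more bases with a probe under another gene name, among them the second probe of *Uqcr10*, which is identical to such a probe. The probe of *Atp5g2*, a gene for the c ring of ATP synthase, was spotted 10 times on each array and gave 23386 to 26469 in WT and 21201 to 23894 in Cx30 KO. The scaled log2 values averaged 5.99 ± 0.06 (SD, n = 10 spots) in WT and 5.89 ± 0.05 in Cx30 KO. These spots overlapped between the arrays, although the gene's log2 ratio was -0.10.

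Genes of this group are known for promoters with sites of NRF1 and of the ETS factor GABP, and *Cycs* for sites of CREB. Promoters of RefSeq (build GRCm38.p6, 250 bases before to 50 after the start) were found for 37 members, with 41 promoters in all, and were searched on both strands for GCGCANGCG (the core of an NRF1 site), CCGGAAG (an ETS core) and TGACGTCA (the site of CREB). The NRF1 core was in 13 of 41 promoters (31.7%) and in 6.25% of all 32851 promoters. The ETS core was in 12 of 41 (29.3%) against 8.86%, and the CREB site in 2 of 41 (4.88%) against 1.79%. No motif contains another, and 6 of the 41 promoters held both the NRF1 and the ETS core, beside 1.21% of all promoters. The median log2 ratio was -0.11 for the 13 genes with the NRF1 core and -0.11 for the 24 without it, and it was -0.11 for the 12 genes with the ETS core and -0.10 for the 25 without it. The members with the CREB site were *Cycs* and *Uqcrfs1*, at -0.30 and -0.31 on the log2 scale, which were chosen for display with their ratios known.

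The 170 bases before the start are shown for the 3 promoters that hold both the NRF1 and the ETS core within them, one each of complexes II, IV and V, and for the 2 promoters with the CREB site. Capitals mark the motifs, an ETS core on the other strand reads CTTCCGG, an NRF1 core there reads CGCNTGCGC, and a match is only a match of letters. All 5 lie on the minus strand, at chr9:50603850-50604019 (*Sdhd*), chr5:115348959-115349128 (*Cox6a1*), chr11:115419920-115420089 (*Atp5h*), chr6:50566570-50566739 (*Cycs*) and chr13:30545317-30545486 (*Uqcrfs1*).
Sdhd: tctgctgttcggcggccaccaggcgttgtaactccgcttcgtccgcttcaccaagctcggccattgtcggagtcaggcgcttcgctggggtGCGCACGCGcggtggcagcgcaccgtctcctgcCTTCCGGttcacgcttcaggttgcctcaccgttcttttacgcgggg
Cox6a1: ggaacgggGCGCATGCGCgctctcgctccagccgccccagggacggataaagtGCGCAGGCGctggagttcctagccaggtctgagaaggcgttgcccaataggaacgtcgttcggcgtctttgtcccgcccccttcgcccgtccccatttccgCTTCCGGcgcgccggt
Atp5h: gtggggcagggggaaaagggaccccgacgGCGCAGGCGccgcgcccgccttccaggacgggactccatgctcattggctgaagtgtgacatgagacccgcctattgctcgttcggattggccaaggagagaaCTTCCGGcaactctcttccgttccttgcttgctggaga
Cycs: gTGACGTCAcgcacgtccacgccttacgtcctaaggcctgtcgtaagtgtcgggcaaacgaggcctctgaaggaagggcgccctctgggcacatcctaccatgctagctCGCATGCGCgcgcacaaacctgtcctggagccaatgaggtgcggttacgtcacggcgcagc
Uqcrfs1: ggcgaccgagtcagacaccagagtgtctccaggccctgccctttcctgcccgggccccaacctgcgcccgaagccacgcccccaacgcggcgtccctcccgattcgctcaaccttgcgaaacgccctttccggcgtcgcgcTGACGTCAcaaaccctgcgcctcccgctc
In *Cox6a1* the NRF1 cores start 162 bases (read on both strands) and 117 bases before the start site and the ETS core 16 bases before it. *Sdhd* and *Atp5h* have the same order, with the NRF1 core 79 and 141 bases and the ETS core 46 and 38 bases before the start. The CREB site begins 169 bases before the start of *Cycs*, which also has an NRF1 core on the other strand at 61 bases, and 29 bases before that of *Uqcrfs1*. The log2 ratios of *Sdhd*, *Cox6a1* and *Atp5h* were -0.11, -0.01 and -0.05.

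Complex II is succinate dehydrogenase, the enzyme shared by the citric acid cycle and the respiratory chain. Its 4 genes had a median log2 ratio of -0.11, with 3 below 0. *Sdhb*, the iron-sulfur subunit, gave 27507 ± 2751 in WT and 29178 ± 2918 in Cx30 KO (log2 ratio 0.16), the highest of the complex. Its second probe gave 0.07. *Sdha*, the flavoprotein that binds succinate, was the lowest by the brightest probes, with 7586 ± 759 in WT, 6613 ± 661 in Cx30 KO and a log2 ratio of -0.13. The second probe of the same transcript gave -0.10, whereas 2 dim probes for other transcripts, with 138 and 97.5 in WT, gave 0.20 and 0.15. The membrane anchors *Sdhc* (4245 ± 425 in WT, 3740 ± 374 in Cx30 KO) and *Sdhd* (7075 ± 708 and 6258 ± 626) each had a log2 ratio of -0.11. By their brightest probes the catalytic pair lay on either side of 0 while both anchors lay below it. With the probes of each gene averaged, *Sdha* gave 0.03, *Sdhb* 0.11, so that only the anchors lay below 0, and the median of the complex was -0.04.

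Complex III, the cytochrome bc1 complex, had 6 of 9 genes below 0 and a median log2 ratio of -0.09. The redox centres differed among themselves. *Uqcrfs1*, the Rieske iron-sulfur protein, gave 6695 ± 670 in WT and 5153 ± 515 in Cx30 KO (log2 ratio -0.31), the lowest of the complex. Its second probe was not well above background. *Cyc1*, the cytochrome c1 subunit, gave 23008 ± 2301 and 22138 ± 2214, a log2 ratio of 0.02, and -0.14 with its other probe. The core subunits, which do not carry redox centres, were the highest. *Uqcrc1* gave 15914 ± 1591 in WT and 16686 ± 1669 in Cx30 KO (log2 ratio 0.14), and *Uqcrc2* gave 13381 ± 1338 and 13335 ± 1334, a log2 ratio of 0.07. All 5 small subunits lay below 0, from -0.19 for *Uqcrq* to -0.03 for *Uqcrh*, with *Uqcrb* (-0.15), *Uqcr11* (-0.14) and *Uqcr10* (-0.09) between them. For *Uqcrb* the other detected probe gave -0.32.

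Cytochrome c carries electrons from complex III to complex IV and, once released into the cytosol, starts the apoptosome. Its somatic gene *Cycs* gave 13734 ± 1373 in WT and 10581 ± 1058 in Cx30 KO (log2 ratio -0.30) with a Z-score of -1.49. The second probe gave 5558 in WT and 4022 in Cx30 KO (log2 ratio -0.40). Both probes thus placed the gene below its WT signal, by less than the limit of the criteria.

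Complex IV is cytochrome c oxidase, whose catalytic centre is made of mitochondrial gene products and whose nuclear subunits surround it. Among its 16 detected genes 14 lay below 0, with a median log2 ratio of -0.14. All 9 ubiquitous subunits measured lay below 0, with a median of -0.16, and did so under each scaling and background correction tried. The filters left these ratios unchanged. Averaging probes could change only *Cox7c*, the one among them with 2 detected probes. The lowest was *Cox5a*, which gave 41834 ± 4183 in WT and 33827 ± 3383 in Cx30 KO (log2 ratio -0.24) with a Z-score of -1.51. *Cox7c* followed with -0.23, and -0.18 by its other probe, and *Cox6c* gave -0.16. *Cox7a2l*, counted here as a factor for supercomplexes of complexes III and IV, gave 25659 ± 2566 and 23948 ± 2395, a log2 ratio of -0.03.

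The isoform pairs of complex IV are built from a ubiquitous form and one that is typical of muscle, lung or testis. *Cox4i1*, the ubiquitous form of subunit 4, gave 78327 ± 7833 in WT and 71593 ± 7159 in Cx30 KO (log2 ratio -0.06). Its lung form *Cox4i2* gave 289 ± 29.2 and 299 ± 30.1, a log2 ratio of 0.12. The members of this pair lay on opposite sides of 0, each within the software's error.

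Subunit 6a showed the reverse order. *Cox6a1* gave 217024 ± 21702 in WT and 204941 ± 20494 in Cx30 KO (log2 ratio -0.01). *Cox6a2*, the heart and muscle form that is also known from parvalbumin-positive interneurons of the brain, gave 2099 ± 210 in WT and 1560 ± 156 in Cx30 KO (log2 ratio -0.36) with a Z-score of -1.30. The 4 genes listed as markers of these interneurons had ratios of both signs, with all 4 detected and 3 below 0. Their sums were 30.7 in WT and 21.0 in Cx30 KO. The brightest of them, *Gad1* (6255 in WT, 4611 in Cx30 KO), is shared by GABAergic neurons in general, so these sums are not particular to the interneurons. *Pvalb* gave 4533 in WT and 1787 in Cx30 KO (log2 ratio -1.27), and alone met the criteria, whereas *Kcnc2* gave -0.72, *Gad1* -0.37 and *Kcnc1* 0.22. Their part in the ratio of *Cox6a2* was not tested, and in bulk tissue fewer cells of a type and less RNA per cell cannot be told apart.

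The ubiquitous *Cox6b1* gave 4449 ± 445 in WT and 3892 ± 389 in Cx30 KO (log2 ratio -0.12). Its testis form *Cox6b2* gave 174 ± 18.0 and 124 ± 13.1, a log2 ratio of -0.42, the lowest of the complex. In subunit 7a the muscle form *Cox7a1* (469 ± 47.2 in WT, 393 ± 39.6 in Cx30 KO) and the ubiquitous *Cox7a2* (32322 ± 3232 and 27074 ± 2707) shared a log2 ratio of -0.18. These 2 pairs lay below 0 in both forms.

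Subunit 7b split again. *Cox7b* gave 15687 ± 1569 in WT and 13101 ± 1310 in Cx30 KO (log2 ratio -0.19), whereas its testis form *Cox7b2* gave 51.7 ± 7.07 and 62.4 ± 7.57, a log2 ratio of 0.34 and the highest of all members. With normexp background correction of the raw signals before quantile normalisation it gave 0.12, and *Uqcrc1* was the highest at 0.14. In subunit 8 the ubiquitous *Cox8a* gave 143640 ± 14364 and 131700 ± 13170, a log2 ratio of -0.05, and the muscle form *Cox8b* gave 98.2 ± 11.0 and 88.8 ± 9.90, a log2 ratio of -0.07. The testis form *Cox8c* was not well above background on either array, at 6.78 ± 4.80 and 16.4 ± 4.57. Over the 6 detected tissue forms the median log2 ratio was -0.13 with 4 below 0, beside -0.16 for the ubiquitous subunits, with a wider range at lower signals. Their signals in WT lay between 51.7 and 2099. Of the muscle markers, *Ckm* and *Myh1* were not well above background on either array, and the 6 detected of 8 had sums of 1.61 in WT and 1.75 in Cx30 KO, carried by *Acta1* (307 and 402). *Myh6*, at 45.0 in WT and 3.84 in Cx30 KO, where it was not well above background, met the criteria for lower expression.

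Complex V is the ATP synthase, whose F1 head makes ATP while a membrane rotor of c subunits turns in the proton flow. Of its 15 subunit genes 10 lay below 0, and the median log2 ratio was -0.08. The F1 head had a median of 0.01. The catalytic *Atp5b* gave 79346 ± 7935 in WT and 71362 ± 7136 in Cx30 KO (log2 ratio -0.08), with -0.10 and -0.11 by its other probes. Its partner *Atp5a1* gave 68583 ± 6858 and 65833 ± 6583, a log2 ratio of 0.01, and -0.09 by its other probe. The rotating shaft gave 0.01 for *Atp5c1* (gamma), 0.07 for *Atp5d* (delta) and -0.13 for *Atp5e* (epsilon). These genes are part of the median of the head. *Atp5a1* and *Atp5c1* were so close to 0 that they turned to below it under quantile normalisation and under scaling by the array median.

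The peripheral stalk holds the F1 head against rotation. *Atp5o*, known as the oligomycin sensitivity protein, gave 47566 ± 4757 in WT and 48770 ± 4877 in Cx30 KO (log2 ratio 0.11), and 0.01 by its other probe. This was the highest ratio of the complex here, but *Atp5o* gave 0.05 under quantile normalisation and 0.04 with normexp, with *Atp5d* the highest at 0.06 under both, and with averaged probes *Atp5d* gave 0.19 and *Atp5o* 0.06. The other stalk genes lay below 0, with -0.05 for *Atp5h*, -0.14 for *Atp5f1* and -0.21 for *Atp5j*. *Atp5j* was the member whose probes disagreed most. Its bright probe gave 17389 ± 1739 and 14341 ± 1434, whereas a probe for another transcript gave 17.6 in WT, where it was not well above background, and 22.4 in Cx30 KO (log2 ratio 0.42). *Atp5f1* also had a dim probe that stood apart, with 38.0 in WT, 25.9 in Cx30 KO and a log2 ratio of -0.48.

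The c ring is made from 3 genes that encode the same mature protein with different targeting peptides. *Atp5g1* gave 41089 ± 4109 in WT and 40005 ± 4001 in Cx30 KO (log2 ratio 0.03), and its other probes 0.01 and 0.07. *Atp5g2* gave 25482 ± 2550 and 22634 ± 2265, a log2 ratio of -0.10. *Atp5g3* gave 43304 ± 4330 and 36865 ± 3686, a log2 ratio of -0.16, and -0.04 by a dim probe. The 3 genes thus differed by less than the software's error.

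The small membrane subunits of complex V, which help ATP synthase form dimers, all lay below 0. *Atp5l* (subunit g, probe at chr9:44721421-44721480 in mm9) was the lowest subunit of the complex, with 43157 ± 4316 in WT, 33436 ± 3344 in Cx30 KO and a log2 ratio of -0.30. Its second probe gave 32191 and 24525, a log2 ratio of -0.32, so both bright probes stood outside the software's error. Its Z-score of -1.86 was the lowest of all members and stayed inside the limit of -2. *Atp5k* (subunit e) gave -0.16 by both of its probes and *Atp5j2* (subunit f) -0.04.

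The remaining names had ratios of both signs. *Atp5s* gave 59.6 ± 7.68 in WT and 41.4 ± 5.99 in Cx30 KO (log2 ratio -0.45), the lowest of all members at a low signal, but -0.23 with normexp, where *Cox6b2* was the lowest at -0.34. *Atp5sl*, named *Dmac2* today, gave 0.02, and -0.11 by its other probe. The pseudogene *Atp5c1-ps* gave 3619 ± 362 and 3139 ± 314, a log2 ratio of -0.13, beside 0.01 for its parent *Atp5c1*. Whether transcripts of the parent bind this probe was not tested.

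Genes that work with these complexes were followed as lists of their own. The mitochondrial genome supplies subunits of complexes III, IV and V. Of its genes, *CYTB* (197262 in WT, 177926 in Cx30 KO) gave a log2 ratio of -0.08 and *COX1* (224812 and 197236) -0.12. *COX2* (231887 and 230285) gave 0.06 and *ATP8* (46321 and 41790) -0.08. The median of these 4 genes was -0.08, beside -0.11 for the nuclear members. Among subunits that carry other names, *Ndufa4* of complex IV gave -0.14, and *Usmg5* and *2010107E04Rik* of complex V gave -0.05 and -0.25. Listed with them, *Ndufa4l2*, a dim relative of *Ndufa4*, gave -0.41, and *Atpif1*, the inhibitor of ATP synthase, gave 0.07. The median of this list was -0.14, with 4 of 5 detected genes below 0.

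Assembly factors, which build the complexes without staying in them, had a median nearer to that of all genes. Of 38 detected factors 22 lay below 0, with a median log2 ratio of -0.03, and no factor (0) met the criteria in either direction. Those of complex IV were split evenly, with 12 of 23 below 0, from *Coa4* at -0.47 to *Coa7* at 0.42 and a median of -0.01. *Surf1*, needed to build the catalytic subunit, gave 0.16 and *Lrpprc*, which keeps mitochondrial mRNA stable, gave -0.30. Those of complex II had 3 of 4 below 0 and a median of -0.27, with *Sdhaf3* the lowest at -0.63 and *Sdhaf1* at 0.19. For complex III, 3 of 6 lay below 0, with *Bcs1l* and *Ttc19* at -0.34 and the dim *Lyrm7* at 0.70, and for complex V, 4 of 5, with a median of -0.06.

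Regulators of mitochondrial genes had a median near that of all detected genes. Of them, 4 of 13 were below 0, and 0 genes met the criteria. Their median log2 ratio was 0.06, beside 0.03 over all detected genes. *Ppargc1a*, the coactivator of mitochondrial biogenesis, gave 1667 in WT and 1619 in Cx30 KO (log2 ratio 0.03), and *Nrf1* gave 0.05. Among the GABP subunits *Gabpa* gave -0.18 and *Gabpb1* 0.38. *Tfam*, which packs mitochondrial DNA and drives its transcription, gave 752 in WT and 544 in Cx30 KO (log2 ratio -0.40), the lowest of the list. *Ppargc1b* was the highest at 0.41.

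Complex I offers the nearest comparison, since it is the target of the MPTP metabolite and feeds the same chain. Of its 36 subunit genes 26 lay below 0 (72.2%), with a median log2 ratio of -0.05 and a range of -0.35 to 0.11. Of the members described here 75% lay below 0, with a median of -0.11. Whether these medians differ was not tested, because each comes from the same pair of arrays.

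**Figure D4:**
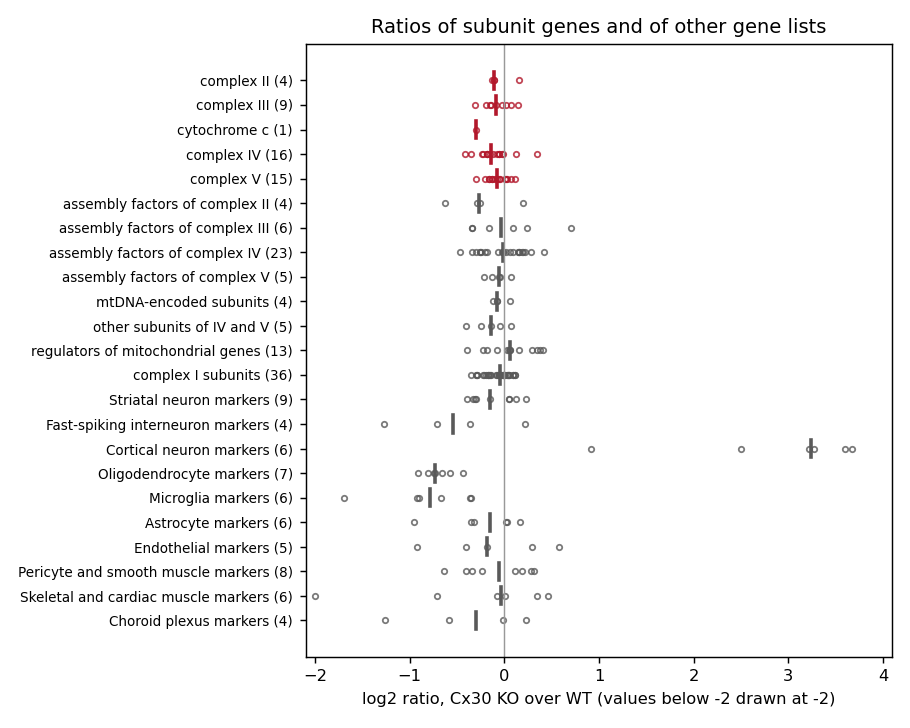
Log2 ratio of Cx30 KO over WT (horizontal axis) for each detected gene (circle) of the subunit genes by complex and of other gene lists (vertical axis, with the number of detected genes), with vertical strokes at the medians. The subunit genes lie between -0.42 and 0.34, whereas cortical neuron markers have a median of 3.24 and oligodendrocyte and microglia markers of -0.73 and -0.78.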

How the data were processed

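The authors deposited, for each array, the spot intensities of an Agilent single-colour array of 60-mer probes, extracted with Agilent Feature Extraction (10.7.1.1 per the file headers, 9.5.1.1 per the labels), which subtracts the background and removes trends within an array. They also deposited a table of normalised intensities, whose sorted columns differ by at most 0.0194% and which follows quantile-normalised processed signals. The method behind it is not given in the sources used here. Both arrays are from the same slide. Probe positions refer to mm9.

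Control spots and outliers were left out, processed signals were averaged over the spots of each probe on the log2 scale, and the 75th percentile of each array over 56605 probes was subtracted. For each gene the brightest probe detected in at least 50% of its spots on at least 1 array was used. No probe (0) was saturated. The Z-score was taken from the 1000 probes nearest in signal because the sources name no set of probes. Named are the highest and lowest gene of each complex, catalytic subunits, isoform pairs, genes with discordant probes and genes of lists. Members and lists were chosen with earlier results of these data known. Calculations used Python 3.11.15, pandas 2.3.3 and, for normexp, limma 3.58.1. They were tested on simulated data with changes larger than the ratio of any member, so differences of the size reported here were not covered. The alternatives were other scalings, background correction, filters, probe rules, Z-scores and ratio limits.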

Additional observations from a re-analysis of the deposited data

How the results depend on the processing

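With 1 array for each genotype, leaving out a replicate was not possible. No paired analysis was possible because each genotype has 1 array. Under 12 alternatives no member (0) met the criteria in either direction. Those that changed only the Z-scores or the ratio limits kept the main ratios, all between -0.60 and 0.58, so their 0 was fixed in advance. All 48 members were detected on both arrays, so that filter changed none of them. The authors' values repeated quantile normalisation almost exactly. The members below 0 numbered 36 to 41 of 48, or 36 of 49 without a filter on dim probes, and the median over all members lay between -0.16 and -0.10. Scaling by the array median left 7 members above 0 in place of 12, so that 85.4% rather than 75% lay below 0, beside 52.7% of all genes. This scaling lowers every ratio by the same amount, and the members' median stayed 0.14 below that of all genes. Without a filter on dim probes the median of all genes was -0.07, with probes at background included, and that of the members -0.11. Averaging the probes of each gene moved the median of complex II to -0.0386 in place of -0.11, through the dim probes of *Sdha*. Of 384 ratios of single members under these settings, 21 moved by more than the spot SD of 0.06, 9 of them with the mean of probes and 8 with normexp, where *Atp5s* (-0.23) and *Cox7b2* (0.12) were no longer the lowest and the highest member. Many of the 384 could not move that far. The filters left every one of these members unchanged, the array median shifts all ratios by less than this SD, and averaging leaves genes with 1 probe as they are. 33 members lay below 0 and 7 above 0 under every scaling, filter and probe rule run. The other 8 changed sign, *Sdha*, *Atp5j* and *Atp5j2* with averaged probes (0.03, 0.11 and 0.03), and *Cyc1*, *Atp5a1*, *Atp5c1*, *Atp5g1* and *Atp5sl*, all near 0, with another scaling or averaged probes. Dim genes, which include *Atp5s*, *Cox7b2*, *Cox6b2* and *Cox8b*, are limited by their signal.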
